A study of Mus musculus with 9 samples.

Results

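The genes described here are Cst7, which encodes cystatin F, its relative Cstb, and 8 lysosomal or related proteases, the cathepsin genes Ctsb, Ctsc, Ctsd, Ctsl, Ctss, Ctsw and Ctsz and the legumain gene Lgmn. They were found as the probe sets whose gene symbol was exactly one of these 10, of 22180 named genes measured in the series. Each had 1 probe set, so no choice between probe sets was needed. The set was chosen by symbol with the null minus WT differences of the series already measured, that of Cst7 among them, so these differences are a description, and the members' p-values only place them in the fit over all genes.

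Expression was measured with 1 whole-transcript Affymetrix array per sample in 9 samples of sorted mouse regulatory T (Treg) cells, suppressive CD4 T cells whose identity rests on the transcription factor Foxp3. The 4 Mst1/Mst2-null samples came from Foxp3YFP-Cre donors in which Stk4 (encoding the Hippo pathway kinase Mst1) and Stk3 (encoding Mst2) were both flanked by loxP sites. The 5 wild-type (WT) samples came from donors with Foxp3YFP-Cre alone, so YFP and Cre at the Foxp3 locus were common to both groups. All were C57BL/6 by label. Marrow of either donor had been mixed at equal parts with marrow of CD45.1 WT mice and given to RAG1-/- recipients 2 months earlier, and the CD4 cells taken were YFP-positive and positive for CD45.2 but not CD45.1. Cre was driven by Foxp3, so deletion begins only once a cell expresses that gene. The labels give no ages and do not state whether samples of a group came from separate recipients, so the spread behind each p-value may be technical.

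Cystatins are tight inhibitors of papain-like cysteine proteases. Most are secreted or cytosolic, but cystatin F is carried to lysosomes and granules, where its main known target in killer lymphocytes is cathepsin C, the dipeptidyl peptidase that activates granzymes. Cathepsins are made as inactive precursors, are sorted to lysosomes largely through mannose 6-phosphate receptors, and there break down proteins, process antigens or trim other enzymes. Cathepsins B, C, L, S, W and Z are cysteine proteases, cathepsin D is an aspartic protease, and legumain cuts after asparagine and matures several cathepsins.

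The promoters (250 bases before and 50 after the annotated start, from RefSeq on GRCm38.p6) were listed for 7 of the 10 genes. Those of Cst7 and Ctss are shown because these genes had differences past the test, and that of Ctsd because it carries the E-box, the core of the CLEAR element through which TFEB-family factors act on lysosomal genes. Capitals mark the E-box CACGTG. The STAT pattern TTCNNNGAA was searched as well and is not in these 3 windows. Both searches covered both strands, and no match of one overlapped a match of the other in the members' windows.
Cst7, chr2:150570165-150570464, plus strand: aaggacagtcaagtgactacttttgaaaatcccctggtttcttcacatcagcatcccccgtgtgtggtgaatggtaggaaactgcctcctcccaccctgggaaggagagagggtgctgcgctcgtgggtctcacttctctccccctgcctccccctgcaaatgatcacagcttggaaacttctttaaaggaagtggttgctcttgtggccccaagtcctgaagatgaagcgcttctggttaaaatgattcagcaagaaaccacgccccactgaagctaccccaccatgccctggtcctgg
Ctss, chr3:95526536-95526835, plus strand: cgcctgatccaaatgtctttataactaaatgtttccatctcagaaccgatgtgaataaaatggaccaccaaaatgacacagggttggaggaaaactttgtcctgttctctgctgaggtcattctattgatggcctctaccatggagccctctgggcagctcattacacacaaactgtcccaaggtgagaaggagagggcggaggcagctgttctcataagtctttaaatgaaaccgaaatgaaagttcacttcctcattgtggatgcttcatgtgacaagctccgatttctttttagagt
Ctsd, chr7:142387778-142388077, minus strand: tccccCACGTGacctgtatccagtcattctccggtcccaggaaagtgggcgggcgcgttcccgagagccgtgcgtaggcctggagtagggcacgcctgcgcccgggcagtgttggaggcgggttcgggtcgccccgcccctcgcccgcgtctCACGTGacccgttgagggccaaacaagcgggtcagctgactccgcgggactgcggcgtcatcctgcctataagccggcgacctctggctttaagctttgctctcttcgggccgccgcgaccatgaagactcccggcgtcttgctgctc
The Ctsd window held 2 copies of the E-box, and the windows of Ctsl and of 1 of the 2 annotated starts of Lgmn held 1 each. The E-box was in 7.15% of all 32851 promoters of this length. The STAT pattern was found in the window of Ctsc alone among the listed members, against 8.30% of all promoters. Neither was in the windows of Cst7, Ctss and Ctsz, which says only that these letters are not within them.

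Before the members were read, the arrays were checked. Foxp3 was 10.72 ± 0.09 (SD, n = 4) in null samples and 10.70 ± 0.05 (SD, n = 5) in WT samples on the log2 RMA scale, the unit of every level below. Stk4 was lower in each null sample than in any WT sample (difference -0.27, limma adjusted p = 0.146), but its probe set is not known to lie in the deleted part, and no probe set was named for Stk3. Hspa1a, a heat shock gene, ranged from 3.18 to 9.86 in null samples and from 2.80 to 9.93 in WT samples. Over all genes, 515 passed the test, a limma adjusted p under 0.05. That was 2.32% of genes, with 1.89% lower and 0.428% higher in null samples.

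Null Treg cells had less transcript of cystatin F and of cathepsins B and S. These 3 of the 10 genes passed the test, all lower, beside 1.89% of all genes. Of all genes with a mean above the median of all values, as all 10 had, 3.56% were lower. Nothing is read from these shares because the genes were chosen with the differences in view. None passed as higher by limma or by ordinary least squares, and 1, Ctsl, was higher at an unadjusted p under 0.05. The groups did not overlap in 5 of the 10, again all lower (Cst7, Ctsb, Ctsd, Ctss and Ctsz), where 4.4% of all genes were lower without overlap. The median difference of the 10 was -0.31, against 0.00230 over all genes and -0.037 over the 11445 left after a filter on dim genes. Since these are bulk samples, fewer cells with a transcript and less of it per cell cannot be told apart.

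**Figure D1:**
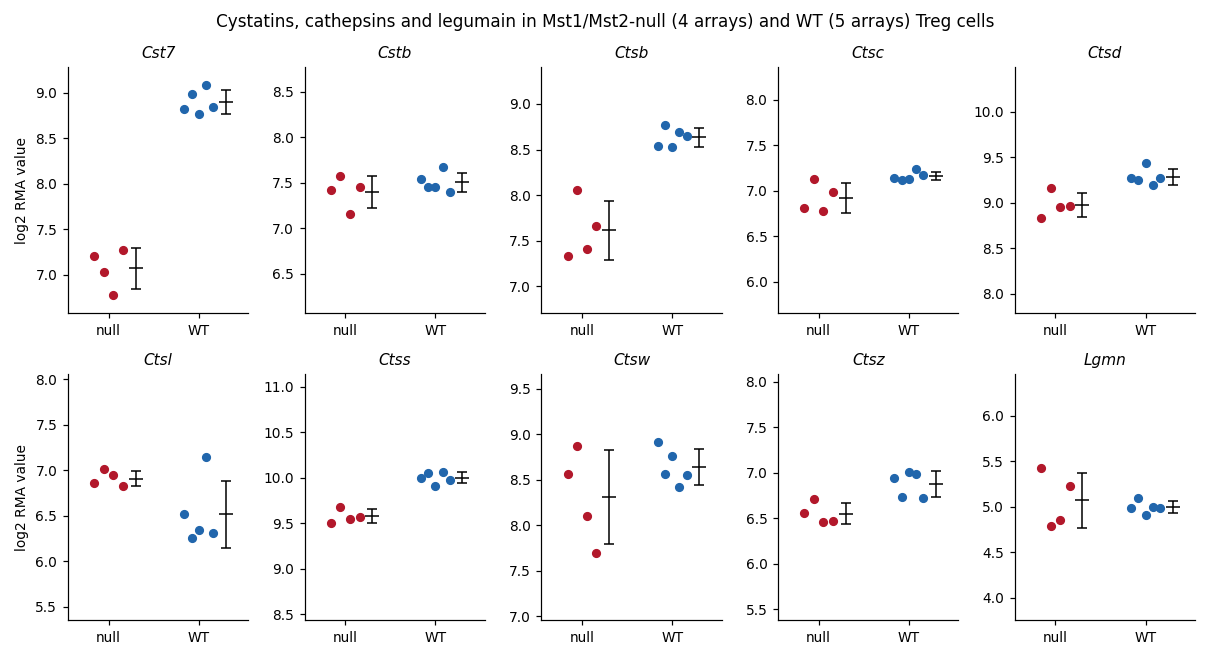
Log2 RMA value of each of the 10 genes in each array, with Mst1/Mst2-null samples (4, red) left of WT samples (5, blue). Black marks are the mean and SD, and each panel spans the same height in log2 units. Null points of Cst7 lie between 6.77 and 7.27, below all WT points (8.77 to 9.08), while those of Ctsw spread from 7.69 to 8.87.

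Among the inhibitors, cystatin F and cystatin B parted. Cst7 had 7.21, 7.03, 6.77 and 7.27 in the null samples, against 8.82, 8.99, 8.77, 9.08 and 8.84 in the WT samples. The lowest WT value stood 1.499 above the highest null value, the widest gap among the 10. The gene fell 3.56-fold (difference -1.83 ± 0.11 (SE), 95% interval -2.07 to -1.59, limma adjusted p = 4.46e-05). Within each array its probe set outranked 83.1% to 87.7% of all probe sets in null samples and 96.2% to 97.2% in WT samples.

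Cstb, the cytosolic and nuclear inhibitor cystatin B (stefin B), had 7.42, 7.58, 7.16 and 7.45 in null samples, against 7.54, 7.45, 7.45, 7.67 and 7.40 in WT samples. The groups overlapped, and the difference of -0.10 did not pass (95% interval -0.30 to 0.10, limma adjusted p = 0.682).

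Of the cysteine endopeptidases, cathepsins B and S fell and cathepsin L lay the other way. Ctsb, a widely expressed lysosomal protease that also trims dipeptides, had 7.33, 8.05, 7.41 and 7.66 in null samples, against 8.53, 8.77, 8.52, 8.69 and 8.64 in WT samples. Every null value was below every WT value, with null sample 2 nearest to them, and the null samples were more spread (SD 0.32, against 0.10 in WT). The fall was 2.02-fold (difference -1.02 ± 0.13 (SE), limma adjusted p = 0.00475), and in the fit by ordinary least squares it missed the threshold (adjusted p = 0.0522, in a range over all alternatives from 0.000661).

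Ctss encodes cathepsin S, which antigen-presenting cells use to cut the invariant chain and which stays active at neutral pH. It had 9.51, 9.69, 9.55 and 9.57 in null samples, against 9.996, 10.05, 9.91, 10.06 and 9.98 in WT samples. The change was small and the replicates were tight, with an SD of 0.07 in null samples and 0.06 in WT samples. It fell 1.34-fold (difference -0.42 ± 0.06 (SE), limma adjusted p = 0.00762). With the replicate number as a block it did not pass (adjusted p = 0.0700, the highest over all alternatives, of which the lowest was 0.00288).

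Ctsl encodes cathepsin L, which serves invariant chain processing in thymic epithelium and protein turnover elsewhere. It had 6.85, 7.01, 6.94 and 6.82 in null samples, against 6.52, 6.26, 6.34, 7.15 and 6.31 in WT samples. WT sample 4 alone lay above all null samples, and the other 4 WT samples lay below all of them. The difference of 0.39 did not pass (95% interval 0.03 to 0.75, limma adjusted p = 0.288). Without WT sample 4 it was 0.55 and passed as higher (adjusted p = 0.0159, in a range up to 0.525 over all alternatives), so that 1 array decides the call.

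Neither exopeptidase passed the test. Ctsc, encoding the granzyme-activating cathepsin C on which cystatin F acts, had 6.81, 7.13, 6.78 and 6.99 in null samples, against 7.14, 7.12, 7.13, 7.23 and 7.18 in WT samples. Only null sample 2 reached into the WT range. The difference was -0.24 (95% interval -0.41 to -0.06, limma adjusted p = 0.181), and without null samples 2 and 4 it passed at -0.37 (adjusted p = 0.0255, in a range up to 0.368 over all alternatives).

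Ctsz encodes cathepsin Z, a carboxypeptidase also called cathepsin X. It had 6.56, 6.72, 6.46 and 6.47 in null samples, against 6.94, 6.73, 7.01, 6.98 and 6.72 in WT samples. The groups touched, with 0.00328 between the highest null and the lowest WT value, and the difference of -0.32 did not pass (limma adjusted p = 0.0963).

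Cathepsin D, the main aspartic protease of lysosomes, was close to the threshold. Ctsd had 8.84, 9.16, 8.95 and 8.96 in null samples, against 9.27, 9.24, 9.43, 9.19 and 9.27 in WT samples. All null values were lower, by a margin of 0.03 between null sample 2 and WT sample 4. The difference was -0.30 (95% interval -0.48 to -0.13, limma adjusted p = 0.0827). Without null sample 2 it passed (difference -0.36, adjusted p = 0.0343, in a range up to 0.254 over all alternatives), and without null samples 2 and 4 together it also passed (difference -0.39).

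Cathepsin W had the widest spread among null samples (SD 0.52), and legumain was even in WT samples only. Ctsw, encoding a protease found mainly in CD8 T cells and natural killer cells, had 8.56, 8.87, 8.10 and 7.69 in null samples, against 8.92, 8.56, 8.76, 8.42 and 8.54 in WT samples. Null samples 3 and 4 lay below all WT samples, and samples 1 and 2 within their range, so the difference of -0.33 did not pass (95% interval -0.80 to 0.13, limma adjusted p = 0.521). Lgmn had 5.42, 4.79, 4.86 and 5.22 in null samples, against 4.99, 5.10, 4.91, 5.00 and 4.99 in WT samples. Null samples lay on both sides of the narrow WT range (difference 0.07, limma adjusted p = 0.845), and this was the member nearest the median of all values, 4.04, below which signal is not shown to exceed background.

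The spread within groups was itself uneven. The SD was larger in null than in WT samples for 8 of the 10 genes (the exceptions were Ctsl and Ctsz) and for 59.2% of all genes. Null sample 2 held the highest null value in 8 of the 10, all but Cst7 and Lgmn, and in 32.3% of all genes. The genes share these arrays, so the 8 are not separate observations.

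**Figure D2:**
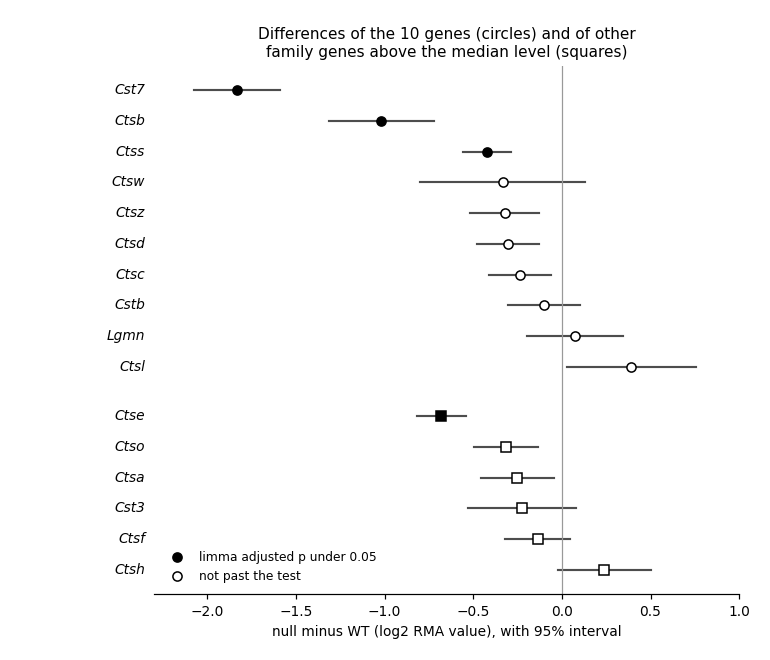
Difference, null minus WT, in log2 RMA value with its 95% interval for the 10 genes (circles) and for 6 other cathepsin and cystatin genes whose mean lay above the median of all values (squares). Filled symbols passed limma at an adjusted p under 0.05. Cst7 lies at -1.83, Ctsb at -1.02, Ctse at -0.68 and Ctss at -0.42.

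The rest of the family was read from the same fit. Of 16 other cathepsin genes, 5 had a mean above the median of all values, and 1, Ctse, passed (6.25%, against 2.32% of all genes). It encodes cathepsin E, an aspartic protease of endosomes related to cathepsin D. It had 9.64, 9.59, 9.47 and 9.48 in null samples, against 10.23, 10.27, 10.15, 10.28 and 10.19 in WT samples. No values overlapped, and the gene fell 1.60-fold (difference -0.68 ± 0.06 (SE), limma adjusted p = 0.000653). The call held in all 20 alternative fits, with adjusted p from 0.000158 to 0.0246. Of the 16, 10 were below that median in all 9 arrays. Among them were Ctsj, Ctsq and Cts6, otherwise known from placenta, but not Cts3, which reached 4.29 in its highest array.

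Other cystatins gave little signal. Of 15 measured, 13 were below the median of all values in all 9 arrays. Limma and ordinary least squares called 0 of them, and 1 had an unadjusted p under 0.05, the stefin gene Stfa3 at 3.26 ± 1.00 (SD, n = 4) in null samples and 2.33 ± 0.25 (SD, n = 5) in WT samples, both below that median. Cst3, the secreted cystatin C, was the only one with a mean above that median, at 8.25 ± 0.30 (SD, n = 4) in null samples and 8.48 ± 0.16 (SD, n = 5) in WT samples (limma adjusted p = 0.504). Among 8 serpins and propeptide-like inhibitors of cathepsins and granule proteases, 0 passed by limma or by ordinary least squares, and 2 had an unadjusted p under 0.05. These were Serpinb1a, an inhibitor of neutrophil-type serine proteases, at 4.45 ± 0.69 (SD, n = 4) in null samples and 3.74 ± 0.22 (SD, n = 5) in WT samples, and Serpinb6b.

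In the lists around the family, all calls were lower in null samples. Over 8 lists holding 142 measured genes, 10 fell and 0 rose by limma (7.04% passed, against 2.32% of all genes), while after quantile normalisation 8 fell and 1 rose. An unadjusted p under 0.05 in either direction was found for 42, where 14.9% of all genes had one. Of all genes with a mean above the median of all values, as 102 of the 142 had, 3.56% fell. The count was 3 by ordinary least squares and 6 without WT sample 2. The lists were chosen with earlier results of these data known.

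**Figure D3:**
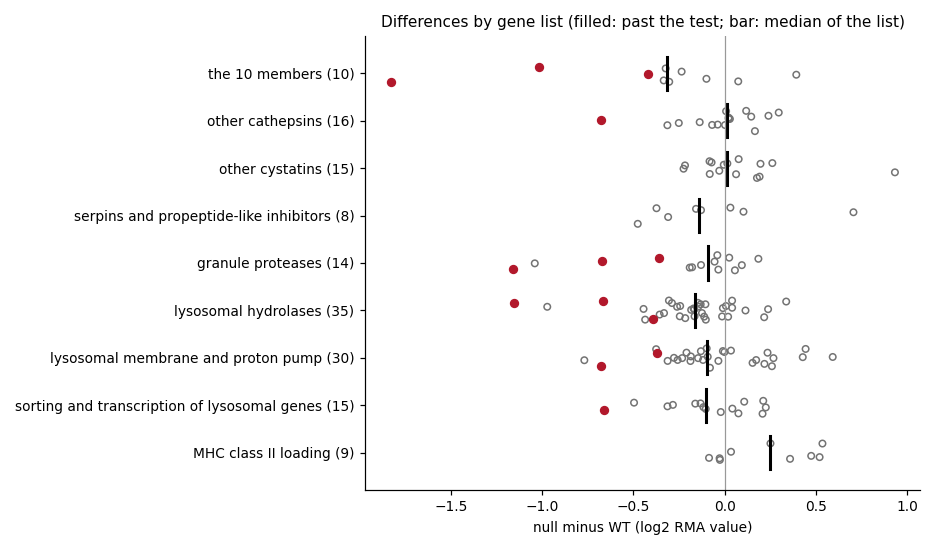
Difference, null minus WT, in log2 RMA value for each gene of the 10 described here and of the 8 lists around them, with the number of genes measured in brackets. Filled points passed limma at an adjusted p under 0.05, and bars mark list medians. All filled points lie below 0, and medians run from -0.31 for the 10 genes to 0.25 for MHC class II loading.

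Granule genes fell in 3 of 14 cases (21.4%, median -0.09), against 1.89% of all genes. Of all genes with a mean above the median of all values, as 9 of the 14 had, 3.56% fell. The 3 granule genes that fell encode granule partners. None of the measured granzyme genes, whose products cathepsin C activates, passed. Of these, Gzma, Gzmc, Gzmd, Gzmf and Gzmg were below the median of all values, 4.04, in all 9 arrays. A fall in them could hardly be seen. Srgn, the proteoglycan that packs granule proteases, had 8.40, 8.43, 8.68 and 8.61 in null samples, against 9.03, 9.34, 9.10, 9.30 and 9.23 in WT samples. It fell 1.59-fold (limma adjusted p = 0.00455). Nkg7, a granule membrane protein of killer lymphocytes, fell 2.23-fold to 6.95 ± 0.38 (SD, n = 4) in null samples, against 8.11 ± 0.26 (SD, n = 5) in WT samples (limma adjusted p = 0.0100, but 0.0826 by ordinary least squares). Rab27a, a small GTPase of granule docking, fell 1.29-fold (adjusted p = 0.0249). Its call was lost without null sample 1 or 4 or without WT sample 2, 3 or 4 (adjusted p up to 0.0699 when 1 array was left out), and also with the replicate block, after quantile normalisation, by ordinary least squares and without null samples 2 and 4 together. The granzyme gene Gzmb was 4.98 ± 0.88 (SD, n = 4) in null samples and 6.02 ± 0.27 (SD, n = 5) in WT samples and did not pass (limma adjusted p = 0.166). It was named after its values were seen.

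Acid hydrolases fell in 3 of 35 cases (median -0.17), where 1.89% of all genes fell. Of all genes with a mean above the median of all values, as 33 of the 35 had, 3.56% fell. Differences were below 0 for 27 of the 35, and for 10927 of 22180 over all genes. Arsb, the sulfatase that acts on dermatan sulfate, had 5.14, 4.76, 5.45 and 5.47 in null samples, against 6.62, 6.63, 6.20, 6.03 and 6.30 in WT samples. It fell 2.23-fold (limma adjusted p = 0.00794), and with the replicate number as a block or by ordinary least squares it did not pass (adjusted p from 0.00438 to 0.0904 over all alternatives). Cpq, a lysosomal carboxypeptidase, fell to 4.27 ± 0.06 (SD, n = 4) in null samples, against 4.94 ± 0.21 (SD, n = 5) in WT samples (adjusted p = 0.00890), but not by ordinary least squares or without null samples 2 and 4 together (adjusted p up to 0.0621). Its null values, from 4.19 to 4.34, lay close to the median of all values, 4.04. Gm2a, the activator protein of ganglioside breakdown, fell 1.31-fold (adjusted p = 0.0348). It passed in only 6 of 20 alternative fits and stayed past the threshold with 1 array left out only where that was null sample 2 or WT sample 4.

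Membrane and proton pump genes fell in 2 of 30 cases (6.67%, median -0.10), against 1.89% of all genes. Of all genes with a mean above the median of all values, as 29 of the 30 had, 3.56% fell. Atp6v1c1, a subunit of the pump that acidifies lysosomes, fell 1.29-fold (limma adjusted p = 0.0137, but 0.113 with the replicate number as a block, the highest of its 20 alternatives). Lamp2, a major protein of the lysosomal membrane, fell to 6.79 ± 0.23 (SD, n = 4) in null samples, against 7.47 ± 0.21 (SD, n = 5) in WT samples (adjusted p = 0.0249), and lost its call by ordinary least squares, without null sample 1 or 3 or without WT sample 2, 4 or 5 (adjusted p up to 0.121). In the list of sorting genes and MiT/TFE factors, 12 of 15 had a mean above the median of all values. There 1 of 15 fell (6.67%, against 1.89% of all genes and 3.56% of those above that median). This was M6pr, the cation-dependent mannose 6-phosphate receptor that carries new hydrolases to endosomes. It had 7.87, 8.45, 7.71 and 8.08 in null samples, against 8.75, 8.69, 8.69, 8.73 and 8.57 in WT samples. Its adjusted p was 0.0275. The call was lost without null sample 1 or 3, without any single WT sample (adjusted p up to 0.0845), with the replicate block and by ordinary least squares.

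**Figure D4:**
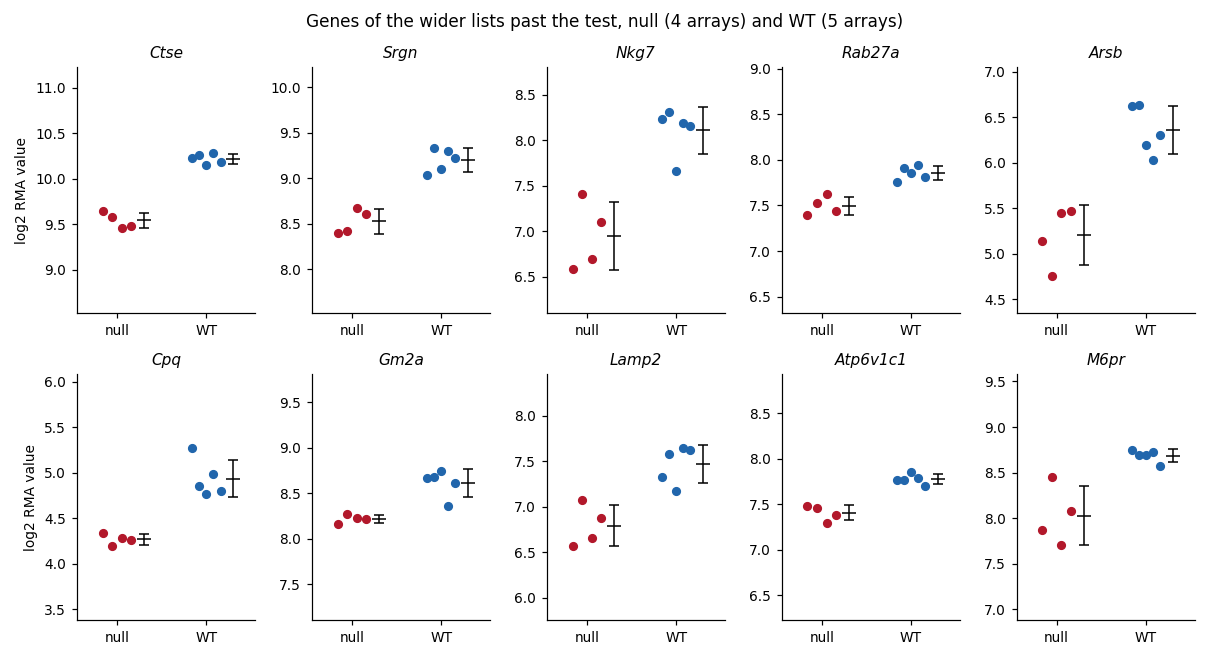
Log2 RMA value in each array of the 10 genes of the surrounding lists that passed limma, with Mst1/Mst2-null samples (4, red) left of WT samples (5, blue) and the mean and SD in black. Each panel spans the same height in log2 units. In all 10 the null points lie below the WT points, closest for Gm2a, where 0.08 separates them.

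Cathepsin S and MHC class II genes were not lower together. The class II loading list, the pathway that cathepsin S serves in antigen-presenting cells, had a median difference of 0.25 with 0 of 9 past limma or ordinary least squares and 1 at an unadjusted p under 0.05. H2-Ab1, a class II chain, ranged from 7.77 to 9.03 in null samples and from 7.34 to 8.70 in WT samples. The mean level of this list overlapped between groups, from 5.87 to 6.37 in null samples and from 5.62 to 6.37 in WT samples.

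Several of these proteases are abundant in myeloid cells and B cells, whose markers were read on the same arrays. The mean level of 20 myeloid markers ran from 4.31 to 5.11 in null samples, highest in sample 4, and from 4.32 to 4.65 in WT samples. Itgam, Cd14, Fcgr1, Clec7a, Itgax and Flt3 were below the median of all values in all 9 arrays, while 12 of the 20 had a mean above it. Of the 20 differences, 16 were above 0 and 4 below, where 11253 of 22180 were above 0 over all genes. Tyrobp, named after its values were seen, was 7.16 ± 0.56 (SD, n = 4) in null samples and 6.42 ± 0.35 (SD, n = 5) in WT samples (limma adjusted p = 0.184). S100a8, named likewise, ran from 2.91 to 8.90 over the 9 arrays. The 1 of 20 that passed was Cybb, the NADPH oxidase chain, lower at 5.98 ± 0.31 (SD, n = 4) in null samples, against 6.98 ± 0.19 (SD, n = 5) in WT samples (limma adjusted p = 0.00759, but 0.0667 by ordinary least squares, the only 1 of its 20 alternatives that lost the call). Of the 20, 7 had an unadjusted p under 0.05, where 14.9% of all genes had one. B cell markers (12 measured, 0 below that median in all arrays) had mean levels from 4.92 to 5.62 in null samples and from 4.73 to 5.49 in WT samples. Limma and ordinary least squares called 0 of them, and 2 of 12 had an unadjusted p under 0.05, Cd79a and Vpreb3, against 14.9% of all genes. The median difference was 0.14 for the myeloid markers and 0.23 for the B cell markers. The part of these cells in the levels of the proteases was not tested.

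Markers of CD8 T and NK cells, which share Cst7, Ctsw and granule genes, had mean levels from 4.48 to 4.86 in null samples and from 4.86 to 5.12 in WT samples. The groups stood apart in this mean by a narrow margin (4.855 in the highest null sample and 4.856 in the lowest WT sample), with null samples lower. The list did not move together: its median difference was 0.04, with 7 of the 12 differences above 0 and 5 below. Cd8b1 and Klrd1, named after their values were seen, lay higher in null samples (differences 0.55 and 0.52) and did not pass. Nkg7 was the 1 of 12 past the test, and 6 had an unadjusted p under 0.05, where 14.9% of all genes had one. Without null sample 4 the count past the test was 3. The 2 added there, named after their values were seen, were Klrg1, an inhibitory receptor, and the chemokine gene Ccl5. Klrg1 was 4.27 ± 0.68 (SD, n = 4) in null samples and 6.01 ± 0.87 (SD, n = 5) in WT samples, and Ccl5 was 6.69 ± 1.08 (SD, n = 4) in null samples and 8.18 ± 0.31 (SD, n = 5) in WT samples. Klrb1c, Ncr1 and Klrk1, which mark NK cells or killer lymphocytes, were below the median of all values in all 9 arrays. Treg and T cell markers were high in all arrays, with means from 9.57 to 9.78 in null samples and from 9.90 to 9.96 in WT samples. The groups did not overlap in that mean. In that list 5 of 8 had an unadjusted p under 0.05, against 14.9% of all genes. Ikzf2, encoding the transcription factor Helios, fell 1.65-fold (limma adjusted p = 0.0330), the 1 of 8 past the test. Its call was lost without null sample 1 or 2, without any single WT sample, without null samples 2 and 4 together, with the replicate block and by ordinary least squares (adjusted p up to 0.168). The part of other cells in the members' differences was not tested.

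**Figure D5:**
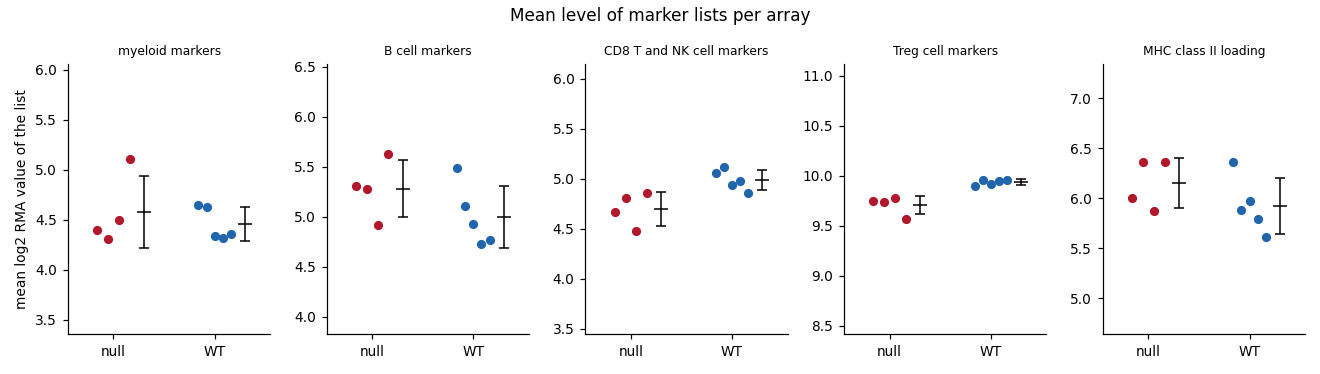
Mean log2 RMA value over the genes of 4 marker lists and of the MHC class II loading list in each array, with Mst1/Mst2-null samples (4, red) left of WT samples (5, blue) and the mean and SD in black. Each panel spans the same height. Myeloid, B cell and class II levels overlap between groups. CD8 T and NK cell markers lie from 4.48 to 4.86 in null samples and from 4.86 to 5.12 in WT samples, just apart, and Treg and T cell markers lie from 9.57 to 9.78 in null samples and from 9.90 to 9.96 in WT samples.

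Genes with profiles most like those of the 3 members past the test were found by the root-mean-square distance between mean-centred log2 profiles over the 9 arrays. Nearest to Cst7 were Naip5 (distance 0.22), Mtmr9 (0.23), Bmp7 (0.29), Trim34a (0.30) and Spock2 (0.31). Naip5 and Trim34a belong to families of close copies that may share probes, so their values are uncertain. Nearest to Ctsb were Rilpl2 (0.14), Batf (0.14), encoding a transcription factor of effector T cells, and Sh3gl3 (0.15), and nearest to Ctss were Abi2 (0.05), Clptm1l (0.05) and Itgal (0.06), the alpha chain of the integrin LFA-1. All of these were lower in null samples and passed the test, as such a distance to a lower gene favours. In gene order, 0 of the 10 measured genes nearest to each of Cst7, Ctsb, Ctss and Ctse (5 on each side) passed the test. Over all genes 2.32% passed, so 0 in such small windows says little. Ctsl and Lgmn, which did not pass themselves, had 1 such neighbour past the test each, Prxl2c and Cpsf2. Longer stretches of the chromosomes, and linkage to the targeted genes, were not tested.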

How the data were processed

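The deposited table held log2 expression values for 41345 probe sets on 9 arrays (1.26 to 12.9, array medians 3.99 to 4.08, no missing value), which the authors obtained, per the submitters' processing notes, by RMA (background correction, quantile normalisation, summary over probes) in version 1.1 of Affymetrix Expression Console. Per the labels' protocols, 1 to 20 ng of RNA entered the NuGEN amplification and biotin labelling. No scanner values were used, so dim signal could not be told from background, and precision is limited by the number of arrays.

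Symbols came from the platform annotation: 23521 probe sets had 1 symbol, 1814 several and 16010 none, and 23328 matched the RefSeq table (GRCm38.p6) by Entrez identifier. The probe set with the highest mean stood for a gene. Null and WT samples were compared over all 22180 genes with limma 3.58.1 (lmFit and eBayes, R 4.3.3), two-sided, with Benjamini-Hochberg adjusted p under 0.05 as the threshold. The fit was tested on simulated data. Members, lists and the rule for named genes (members, Stk4, Foxp3, heat shock genes, up to 4 passing genes per list or the 2 of smallest p, and nearest profiles) were chosen with earlier results of these data known. Of 155 genes in the 8 surrounding lists, 142 had a named probe set. Alternatives changed the block, filter, joining of probe sets, scaling, eBayes, weights, a heat shock covariate, the test and the arrays used. Python 3.11.15 and pandas 2.3.3 served for tables.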

Additional observations from a re-analysis of the deposited data

Results flagged for a closer look

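Of 90 groups of values (45 named genes in 2 genotypes), 4 held a sample far from the others of its group by Dixon's criterion, which chance alone gives in about 1 of 20 groups. Stk4 was 8.09 in WT sample 3, above the other WT samples. Nkg7 was 7.66 in WT sample 3, below the other WT samples and still above all null samples. H2-DMb1, a class II loading gene below the median of all values, was 2.48 in WT sample 4. Cd79a, a B cell receptor chain, was 5.97 in WT sample 1, above the other WT samples. None of the 10 cystatin and protease genes was among them.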

How the results depend on the processing

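Among the 10 genes, 3 passed. Leaving out 1 array at a time gave 3 to 4, and leaving out null samples 2 and 4 together gave 5 (Cst7, Ctsb, Ctss, Ctsc and Ctsd). Null sample 2 held the highest null value in 8 of the 10, so leaving it out lowers their null means by itself. Cst7 passed in all 20 alternatives (differences -1.91 to -1.73), and Ctsb and Ctss in 19 each. The surrounding lists gave 10 calls, 6 with the replicate number as a block, 3 by ordinary least squares and 6 to 11 without 1 array. Over all genes the 515 calls became 178 with the replicate block, 112 by ordinary least squares and 271 to 594 without 1 array. Without null samples 2 and 4 together they became 735. Quantile normalisation of the gene values gave 170 higher and 306 lower, against 95 higher and 420 lower. No scaling moved the median difference of all genes by over 0.1. RMA had already quantile normalised the values, so this median could hardly move. Quantile normalisation of the gene values moved the differences of Cst7, Cstb, Ctsb, Ctsc, Ctsd, Ctsl, Ctss, Ctsw and Ctsz upwards. Ctsc went from -0.24 to -0.16, for example, and Cst7 from -1.83 to -1.77. The same 3 members passed. Same-numbered null and WT samples share only a number: their deviations correlated between -0.115 and 0.0420, and the block moved the members' count to 2. The cause of these changes was not tested. Without scanner values, dim signal cannot be told from background. The level 4.04 is the median of all values and no detection limit, so levels just above it are uncertain too.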

Other observations

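Some further lysosomal genes, named after their values were seen, were near the threshold and did not pass. Scpep1, a serine carboxypeptidase relative, was 5.04 ± 0.56 (SD, n = 4) in null samples and 6.01 ± 0.22 (SD, n = 5) in WT samples (limma adjusted p = 0.0588). Cln3, a membrane protein mutated in Batten disease, was 5.91 ± 0.37 (SD, n = 4) in null samples and 6.68 ± 0.25 (SD, n = 5) in WT samples (adjusted p = 0.0535). Gnptg, a subunit of the enzyme that tags hydrolases with mannose 6-phosphate, was 6.54 ± 0.16 (SD, n = 4) in null samples and 7.04 ± 0.21 (SD, n = 5) in WT samples (adjusted p = 0.0598). Npc1, the cholesterol exporter of late endosomes, lay the other way at 6.22 ± 0.26 (SD, n = 4) in null samples and 5.79 ± 0.14 (SD, n = 5) in WT samples (adjusted p = 0.110).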
